A study of Mus musculus with 5 samples.

Results

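TNF superfamily genes were followed in whole-colon RNA of mice given the IL-11 receptor agonist NT-3N, a modified human IL-11. The genes were 5 ligands (Tnfsf11, Tnf, Tnfsf12, Lta and Tnfsf15), 4 signalling receptors (Tnfrsf11a, Tnfrsf1a, Tnfrsf1b and Tnfrsf12a) and the decoy receptor Tnfrsf11b. They were chosen by name, and every probe whose accession mapped to them was used, which gave 15 of 56605 probes and 10 of 22911 genes with a RefSeq symbol on the array. RNA of 1 mouse was hybridised to each of 5 single-colour Agilent arrays.

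The NT-3N group held 3 wild-type C57BL/B6 mice of 8 weeks, which were injected intravenously and sampled 3 hr later. The dose is given as 10 mg in the text of the series and as 10 µg in the methods of the study, so its unit is unsettled. The Control group held 2 mice of that strain that were untreated per the study, with no vehicle injection given, so the agonist and the injection itself cannot be told apart. All 10 listed markers of colon epithelium were well above background on every array. The spot intensities had been background-subtracted by the scanner software, and the values below are log2 signals after quantile normalization. The share of probes well above background ranged from 70.6% to 72.9% by array, without saturated spots. Socs3, a feedback inhibitor of gp130 signalling, rose 6.52-fold in NT-3N (limma adjusted p = 0.0087, and 0.063 or 0.12 without NT-3N replicate 2 or 3) and was called in 13 of 18 alternatives.

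Ligands of this superfamily are mostly made as membrane proteins that act as trimers, on the cell surface or after shedding. Their receptors recruit TRAF proteins, and some recruit death domain adaptors, which leads to NF-kB and MAP kinase signalling or to cell death. In the gut, TNF is a central inflammatory cytokine, RANKL (Tnfsf11) from stromal cells directs the differentiation of M cells over lymphoid follicles, and lymphotoxins organise those follicles.

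Of the 10 genes, 9 had a probe that passed the filter, a signal well above background on 2 or more of the 5 arrays. All 9 were well above background on every array, so none of them passed through 1 group only. limma called 0 of the 9 at an adjusted p under 0.05, where 0.143% of the 32917 features were called, 0.125% higher and 0.0182% lower. At an unadjusted p under 0.05 there were 2, with Tnfrsf1a higher and Tnfrsf12a lower in NT-3N, where 4.95% of all features were higher and 4.67% lower. The arrays of the groups did not overlap for 3 of the 9 genes, against 28.4% of all features. Of these, Tnfrsf1a and Tnfrsf11b lay higher in NT-3N, against 13.5% of all features, and Tnfrsf12a lower, against 14.8%. The median log2 fold change of the 9 was 0.029, and that of all features was -0.019. With 2 arrays against 3, the smallest p that an exact permutation test of 1 gene can give is 0.1. Fewer cells of a type and less RNA per cell cannot be told apart in whole tissue.

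**Figure D1:**
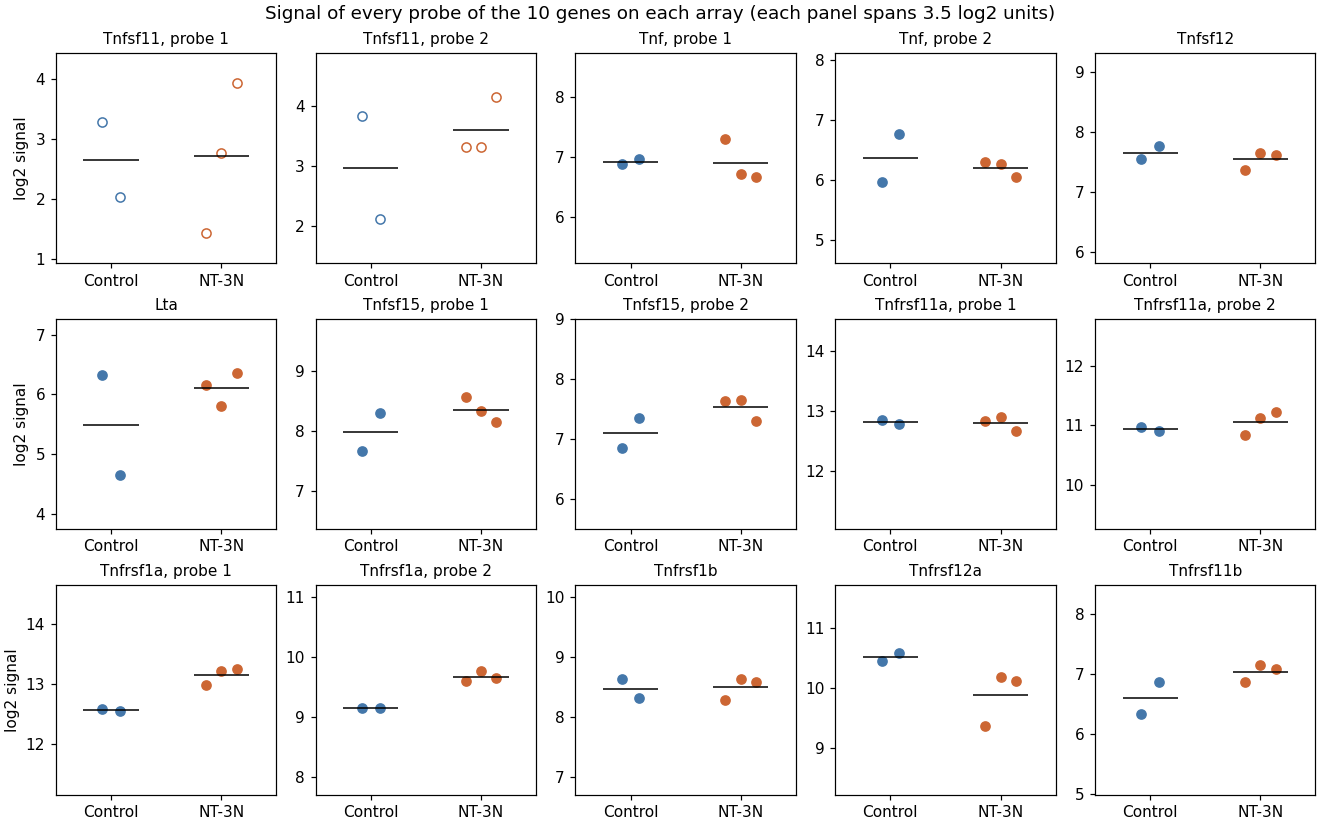
Log2 signal (vertical axis) of each of the 15 probes in Control (blue, 2 arrays) and NT-3N (orange, 3 arrays), with 1 point for each array, a line at the group mean and hollow points for the Tnfsf11 probes, which were too dim to be tested. Both Tnfrsf1a probes lay higher on all 3 NT-3N arrays, and Control replicate 2 held the lowest Lta value, 4.66.

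Tnfrsf1a encodes TNFR1, the broadly expressed death domain receptor through which soluble TNF mainly acts. Its brighter probe gave log2 signals of 12.58 and 12.55 in the controls and of 12.98, 13.21 and 13.24 in the NT-3N mice. Every NT-3N array lay above both controls, and the controls differed by less than the NT-3N arrays did among themselves. The group means were 12.56 ± 0.019 (SD, n = 2) and 13.15 ± 0.14 (SD, n = 3). Their difference of 0.58 on the log2 scale (NT-3N minus Control) had a standard error of 0.10, a 95% confidence interval from 0.34 to 0.83 and a limma adjusted p of 0.15. The other probe read 9.15 on both control arrays and 9.61, 9.77 and 9.65 on the NT-3N arrays. The log2 fold change of this probe, 0.53 (95% confidence interval 0.28 to 0.78, limma adjusted p = 0.18), lay within the interval of the brighter one.

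This was the member with the smallest p, and its side of the threshold depended on the processing. The adjusted p was 0.037 in limma with array weights and 0.049 in limma without NT-3N replicate 1. It was 0.047 in a local-pooled-error test, of the kind that the methods of the study name. That test was written here and used another filter than the study, so it is not the study's own result. Over 18 alternatives the adjusted p ranged up to 0.60. The log2 fold change stayed between 0.53 and 0.67 in all of them, and the unadjusted p was under 0.05 in each. The genes whose profile over the 5 arrays was most like that of Tnfrsf1a, among 16734 genes above background on all arrays, were Rrp15, Gnl3 and Rcl1. Their centred log2 profiles differed from it by a root mean square of 0.014, 0.037 and 0.038, and their log2 fold changes were 0.59, 0.52 and 0.65, with limma adjusted p of 0.21, 0.31 and 0.14. Markers of smooth muscle, of which 8 of 8 were above background on every array, averaged 14.25 and 14.32 in the controls and between 13.66 and 13.997 in NT-3N, and all 8 had a negative log2 fold change. Macrophage markers (8 of 8) averaged 9.99 to 10.05 in Control and 9.81 to 10.28 in NT-3N, and fibroblast markers (8 of 8) 12.32 to 12.39 and 12.26 to 12.85. Endothelial markers (7 of 7) averaged 8.40 to 8.43 and 8.26 to 8.68. Among the fibroblast markers 5 log2 fold changes were positive and 3 negative. The largest was that of Pdpn, 1.49 (limma adjusted p = 0.067). The part of the shift in smooth muscle markers in the Tnfrsf1a difference was not tested.

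Sequence before the transcription start was searched for letters that resemble STAT, AP-1 and NF-kB sites, since IL-11 acts through STAT3 and TNF receptors through the other factors. The RefSeq promoter table of GRCm38.p6 held 8 of the 10 genes, without Tnfsf12 and Tnfrsf11b, and the window was the 250 bases before the start. The motif TTCNNNGAA, searched on both strands, was present in the windows of Tnfrsf1a, Tnfrsf1b and Lta, and in 7.02% of 32851 promoters. The motif TGANTCA and the NF-kB consensus, present in 6.75% and 7.25% of all windows, were found in 0 of these 8 windows, and no window held more than 1 kind of motif. The windows of the 3 genes with a match are shown with that of Tnfrsf12a, the other gene at an unadjusted p under 0.05, and that of Tnfaip2, the NF-kB target called below. They are written 5′ to 3′ on the gene's strand, and capitals mark the STAT motif, or the NF-kB consensus in Tnfaip2.
Tnfrsf1a, chr6:125349473-125349722, plus strand: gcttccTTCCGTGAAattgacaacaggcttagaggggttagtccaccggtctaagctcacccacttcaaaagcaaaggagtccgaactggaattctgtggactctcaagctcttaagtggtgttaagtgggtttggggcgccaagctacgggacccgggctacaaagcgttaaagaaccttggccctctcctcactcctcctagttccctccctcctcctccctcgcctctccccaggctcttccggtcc
Tnfrsf1b, chr4:145246871-145247120, minus strand: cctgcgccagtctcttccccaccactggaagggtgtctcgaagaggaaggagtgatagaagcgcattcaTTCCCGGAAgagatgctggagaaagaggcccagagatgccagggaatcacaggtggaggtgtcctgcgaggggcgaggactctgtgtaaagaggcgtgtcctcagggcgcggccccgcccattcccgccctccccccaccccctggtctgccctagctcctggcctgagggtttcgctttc
Lta, chr17:35205352-35205601, minus strand: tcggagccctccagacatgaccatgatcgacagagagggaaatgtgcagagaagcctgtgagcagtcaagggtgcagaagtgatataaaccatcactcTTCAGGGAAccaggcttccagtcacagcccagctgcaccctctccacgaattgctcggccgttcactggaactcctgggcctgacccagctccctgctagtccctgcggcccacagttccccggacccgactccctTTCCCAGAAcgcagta
Tnfrsf12a, chr17:23677450-23677699, minus strand: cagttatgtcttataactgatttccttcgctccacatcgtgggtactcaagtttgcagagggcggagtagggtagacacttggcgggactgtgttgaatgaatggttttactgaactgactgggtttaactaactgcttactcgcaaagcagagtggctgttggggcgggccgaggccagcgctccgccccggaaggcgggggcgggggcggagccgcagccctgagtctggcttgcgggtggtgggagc
Tnfaip2, chr12:111442411-111442660, plus strand: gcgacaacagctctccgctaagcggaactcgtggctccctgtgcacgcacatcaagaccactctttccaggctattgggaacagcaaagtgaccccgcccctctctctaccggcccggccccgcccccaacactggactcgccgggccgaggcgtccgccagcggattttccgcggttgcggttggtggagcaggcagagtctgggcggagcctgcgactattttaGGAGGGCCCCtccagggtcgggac
The match in Tnfrsf1a begins 244 bases before the start, that in Tnfrsf1b 181 bases before it, and those in Lta 152 and 16 bases before it. Such a match describes letters and is no evidence of binding, and of these 3 genes only Tnfrsf1a had an unadjusted p under 0.05 in limma.

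Tnfrsf1b encodes TNFR2, found mainly on immune and endothelial cells, which binds membrane TNF and has no death domain. It read 8.62 and 8.31 in Control and 8.27, 8.63 and 8.58 in NT-3N, so the groups overlapped. The log2 fold change, 0.029, had a 95% confidence interval from -0.37 to 0.43 (limma adjusted p = 0.97), and its sign turned in 5 of 18 alternatives. The ligand Tnf was measured by 2 probes. The brighter read 6.88 and 6.96 in the controls and 7.30, 6.72 and 6.67 in NT-3N, with NT-3N replicate 1 the highest and the other NT-3N arrays the lowest. The fitted log2 fold change of Tnf was -0.023 with a 95% confidence interval from -0.56 to 0.52 (limma adjusted p = 0.98), and its sign turned in 5 of 18 alternatives. The dimmer probe read 5.97 and 6.76 in Control and between 6.05 and 6.30 in NT-3N, a log2 fold change of -0.16 (95% confidence interval -0.78 to 0.46).

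Tnfrsf12a encodes Fn14, the receptor of TWEAK, which is known to be induced in injured tissue. Its probe read 10.44 and 10.58 in Control and 9.36, 10.18 and 10.12 in NT-3N. All 3 NT-3N arrays lay below the controls, and NT-3N replicate 1 was the lowest. The means were 10.51 ± 0.098 (SD, n = 2) and 9.89 ± 0.46 (SD, n = 3), a 1.54-fold difference with a log2 fold change of -0.62, a 95% confidence interval from -1.24 to -0.011 and a limma adjusted p of 0.51. Without NT-3N replicate 1 the log2 fold change was -0.36, and over 18 alternatives the unadjusted p was under 0.05 in 11. The mean of the smooth muscle markers given above was also lower in NT-3N, and lowest on NT-3N replicate 1, at 13.66. The part of that shift in the Tnfrsf12a difference was not tested. The ligand of this receptor, Tnfsf12 (TWEAK), read 7.54 and 7.76 in Control and 7.37, 7.64 and 7.61 in NT-3N. The groups overlapped, with a log2 fold change of -0.11 and a 95% confidence interval from -0.47 to 0.26 (limma adjusted p = 0.85).

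**Figure D2:**
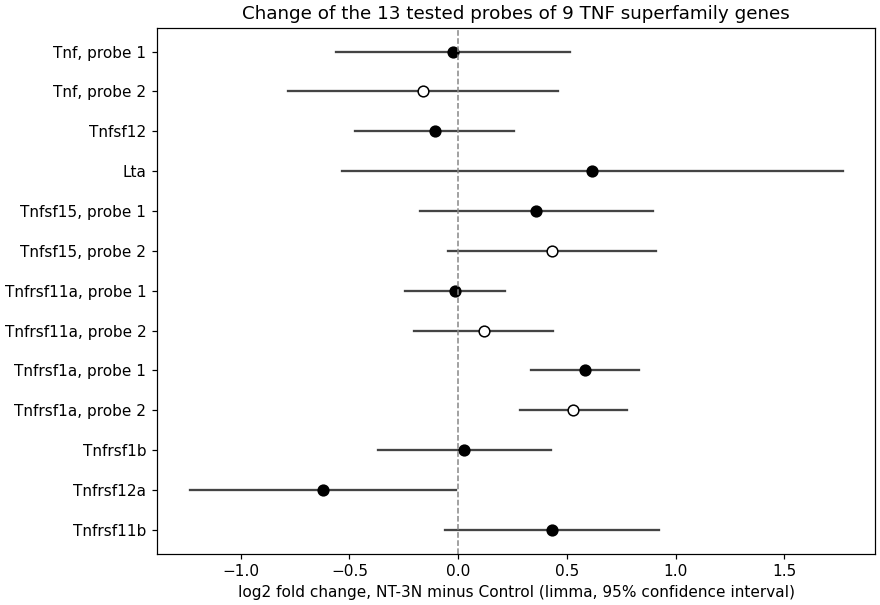
Log2 fold change of NT-3N minus Control (horizontal axis) with its 95% confidence interval in limma for the 13 tested probes, with filled points for the brightest probe of a gene and hollow points for further probes. The intervals of both Tnfrsf1a probes and of Tnfrsf12a leave out 0, and that of Lta is the widest, from -0.54 to 1.77.

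In the RANK system, the ligand Tnfsf11 (RANKL) was at the limit of the array. Of its 2 probes, the first was well above background on 0 of 2 control and 1 of 3 NT-3N arrays, and the second on 1 of 2 and 0 of 3. The second read 3.82 and 2.11 in Control and 3.31, 3.31 and 4.15 in NT-3N, and the first ranged from 1.43 to 3.93 over all arrays. The lowest signal of any probe well above background lay between 3.33 and 3.70 on an array, so a difference in Tnfsf11 was not detectable and no fold is given. The receptor Tnfrsf11a (RANK) was measured well, at 12.84 and 12.78 in Control and 12.83, 12.90 and 12.66 in NT-3N. The groups overlapped, with a log2 fold change of -0.015 and a 95% confidence interval from -0.25 to 0.22 (limma adjusted p = 0.97), and its sign turned in 7 of 18 alternatives. The dimmer probe gave 0.12 (95% confidence interval -0.20 to 0.44), so the 2 probes had opposite signs within their intervals.

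Tnfrsf11b encodes osteoprotegerin, a secreted decoy receptor that binds RANKL and keeps it from RANK. Its probe read 6.33 and 6.86 in Control and 6.86, 7.14 and 7.07 in NT-3N. The groups did not overlap, but Control replicate 2 and NT-3N replicate 1 were nearly equal at 6.857 and 6.860. The log2 fold change was 0.43 with a 95% confidence interval from -0.060 to 0.92 and a limma adjusted p of 0.57. Leaving out Control replicate 1 gave 0.17, and leaving out Control replicate 2 gave 0.69, so its size rested on which control was used. Of 8 genes that RANK signalling is known to raise in M cells, limma called 1, Tnfaip2, described below with the NF-kB targets, where 0.143% of all features were called. Of the 6 that were above background on all 5 arrays, 4 had a positive and 2 a negative log2 fold change. Sox8 and Anxa5 were left out of these signs. The transcription factor gene Sox8 was above background on 2 of 2 control and 0 of 3 NT-3N arrays, so it passed the filter through Control alone. It read 4.60 and 3.74 in Control and 2.93, 3.52 and 3.40 in NT-3N (limma adjusted p = 0.57). Anxa5, above background on 1 of 2 control arrays, is described under other observations.

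Lta encodes lymphotoxin-alpha, made by lymphocytes, which organises lymphoid tissue together with lymphotoxin-beta (Ltb). Its probe read 6.32 and 4.66 in Control and 6.15, 5.81 and 6.36 in NT-3N. Control replicate 2 was the lowest array by far, and the other control lay within the NT-3N range. The log2 fold change was 0.62 with a 95% confidence interval from -0.54 to 1.77 (limma adjusted p = 0.72). Leaving out Control replicate 2 gave -0.21 and leaving out Control replicate 1 gave 1.46, so that single control set its direction. Ltb read 10.82 and 9.23 in Control and 10.47, 10.17 and 10.48 in NT-3N, with a log2 fold change of 0.35 that became -0.44 without Control replicate 2. Tnfrsf13c, the receptor of the B cell survival factor BAFF, read 8.72 and 5.87 in Control and 8.43, 8.46 and 8.56 in NT-3N. Its log2 fold change of 1.19 became -0.23 without Control replicate 2 and 2.63 without Control replicate 1, when limma called it with an adjusted p of 0.040, and a further probe gave 0.10 on all 5 arrays. Ltb and Tnfrsf13c were singled out after their values were seen.

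Of 10 listed markers of B cells and follicles, 9 were tested, all 9 were well above background on every array, and 7 of the 9 were lowest on the same array, Control replicate 2. Their mean log2 signal was 8.64 and 7.06 in Control and lay between 8.77 and 9.17 in NT-3N. The exceptions, named after their values were seen, were Ms4a1 (CD20) and Cd22, which B cells carry on their surface. Ms4a1 was low on both control arrays, at 4.95 and 6.53, against 9.54, 9.13 and 9.51 in NT-3N (log2 fold change 3.65, limma adjusted p = 0.059). It was the only marker of the 9 that was lowest on Control replicate 1, and this value pulls down the mean of 8.64 there. Cd22 read 9.47 and 9.17 in Control and 9.30, 8.9997 and 9.43 in NT-3N, so its groups overlapped. T cell markers (8 of 9 tested, all above background) averaged 8.34 and 8.22 in Control and 8.21 to 8.61 in NT-3N. Gp2, a marker of mature M cells, also varied between mice of 1 group, from 4.51 to 9.76 in Control and from 4.85 to 8.93 in NT-3N. The part of follicle content in the Lta, Ltb and Tnfrsf13c values was not tested.

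**Figure D3:**
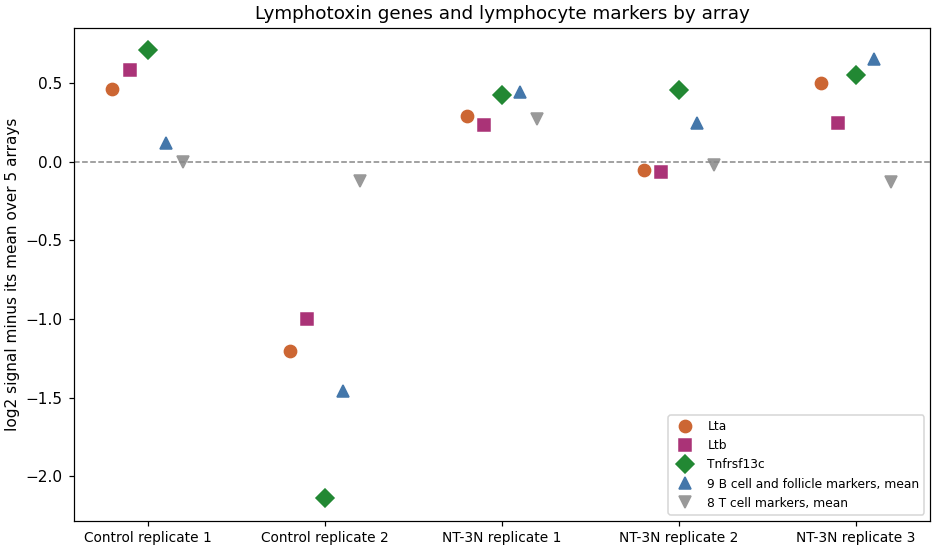
Log2 signal minus its mean over the 5 arrays (vertical axis) for Lta, Ltb, Tnfrsf13c and the means of 9 B cell and follicle markers and 8 T cell markers on each array (horizontal axis). Control replicate 2 is the lowest array for Lta, Ltb, Tnfrsf13c and the B cell mean, 7.06, while the T cell mean there, 8.22, lies within the range of the other arrays.

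Tnfsf15 encodes TL1A, a ligand linked to gut inflammation. The brighter of its 2 probes read 7.68 and 8.31 in Control and 8.57, 8.33 and 8.16 in NT-3N. Control replicate 1 was the lowest array, and the other control lay within the NT-3N range. The log2 fold change was 0.36 with a 95% confidence interval from -0.18 to 0.90 (limma adjusted p = 0.65), and it was 0.045 without Control replicate 1. The second probe read 6.85 and 7.34 in Control and 7.64, 7.65 and 7.30 in NT-3N, with a log2 fold change of 0.43 (95% confidence interval -0.049 to 0.91). Its receptor Tnfrsf25 (DR3), singled out for this role, had a log2 fold change of -0.080 (95% confidence interval -0.42 to 0.26).

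Of 36 other ligands and receptors of the superfamily, on a list chosen with earlier results of these data known, 29 were tested. limma called 0 of them at an adjusted p under 0.05, where 0.143% of all features were called. Of the 26 that were above background on all 5 arrays, 5 had an unadjusted p under 0.05, 4 higher and 1 lower, against 9.62% of all features. Tnfsf8, which passed the filter through the NT-3N arrays alone, made the count 6. This count of 6 was 3 without NT-3N replicate 2 and 9 without NT-3N replicate 1, and 3 with the replicate number as a block. The median log2 fold change of those 26 was 0.16. Tnfsf9, the ligand of the T cell costimulator 4-1BB, read 6.88 and 7.01 in Control and 7.37, 7.67 and 7.75 in NT-3N (log2 fold change 0.65, limma adjusted p = 0.30). Tnfsf8, the CD30 ligand, was well above background on 0 of 2 control and all 3 NT-3N arrays. Its difference was put at 1.64-fold higher in NT-3N, a value that was not tested. For this, each control array counted as its dimmest probe above background, or as Tnfsf8 itself where that was brighter. The limma adjusted p of 0.34 belongs to the fitted difference without this floor. With the normexp alternative the log2 fold change was 0.27, so the 1.64-fold value is no strict lower bound.

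Among the receptors, Fas, the death receptor of Fas ligand, read 9.86 on both control arrays and 10.49, 10.31 and 10.14 in NT-3N. The difference was 0.46 on the log2 scale (limma adjusted p = 0.35), and a further probe gave 0.54. Relt had a log2 fold change of 0.68 (limma adjusted p = 0.41), while a further probe gave -0.21, and that of Tnfrsf18, the T cell receptor GITR, was 0.50 (limma adjusted p = 0.48). Tnfrsf19 (TROY), a receptor found on crypt stem cells, read 7.73 and 8.08 in Control and 7.52, 7.41 and 7.57 in NT-3N. The difference was -0.41 on the log2 scale (limma adjusted p = 0.48). A further Tnfrsf19 probe read 7.81 and 8.32 against 6.56, 6.75 and 6.98, a log2 fold change of -1.30 (limma adjusted p = 0.12), so the probes shared a sign and differed in size. Ltbr, the lymphotoxin-beta receptor, singled out for its role, had a log2 fold change of 0.17 (95% confidence interval -0.022 to 0.36).

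Adaptors, kinases and inhibitors that carry receptor signals were all measured, with 26 of 26 genes above background on every array. limma called 0, where 0.143% of all features were called. At an unadjusted p under 0.05 there were 3, with 1 higher and 2 lower, which is 11.5% against 9.62% of all features. This count was 0 without Control replicate 2. Their median log2 fold change was -0.018, and the extremes were -0.62 and 0.38. The kinase Map3k14 (NIK), which starts noncanonical NF-kB signalling, read 9.44 and 9.32 in Control and 9.67, 9.83 and 9.76 in NT-3N (limma adjusted p = 0.35). Rnf31 (HOIP), the catalytic subunit of the linear ubiquitin ligase, read 12.47 and 12.62 against 12.26, 11.60 and 11.92 (log2 fold change -0.62, limma adjusted p = 0.39). Traf5 had a log2 fold change of -0.30, and a further probe gave -0.36. Of 7 genes that control TNF mRNA or its shedding, limma called 0 (0.143% of all features), with 2 at an unadjusted p under 0.05 (9.62% of all features). Zfp36l1, which binds AU-rich mRNA, had a log2 fold change of 0.36 (limma adjusted p = 0.28) and Litaf 0.28 (limma adjusted p = 0.44), while further probes of these genes gave -0.24 and 0.011.

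**Figure D4:**
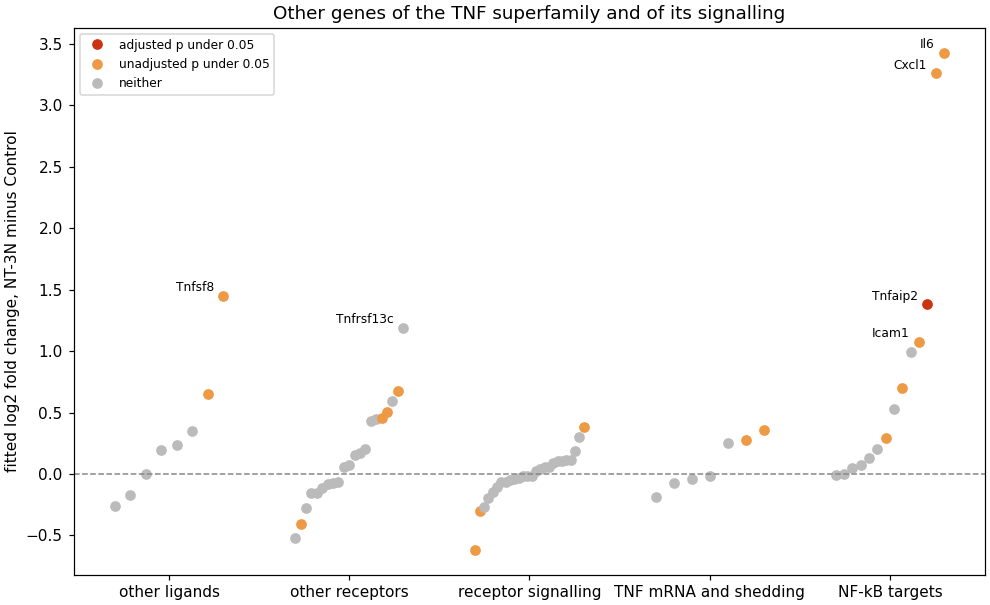
Fitted log2 fold change of NT-3N minus Control (vertical axis) for the tested genes of 5 lists (horizontal axis), with 1 point for each gene, sorted within a list and coloured by its p in limma. Tnfaip2 is the only called gene among them, and the fitted values of Il6, Cxcl1 and Tnfsf8 are not measured folds, since their control signals reached background.

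Of 16 genes that TNF receptors are known to raise through NF-kB, 14 were tested and 12 were above background on all 5 arrays. The list was chosen with earlier results of these data known, so the shares below only describe it. Of these 12, limma called 1 at an adjusted p under 0.05, where 0.143% of all features were called. At an unadjusted p under 0.05 there were 4, all higher, where 4.95% of all features were higher. A positive log2 fold change was found for 11, and for 15263 of all 32917 features. Il6 and Cxcl1, which were above background on 0 and 1 of the 2 control arrays, made the count 6. This count of 6 was 3 without NT-3N replicate 2 or 3. The median log2 fold change of the 12 was 0.25. Nearest 0 were Nfkbia, Sod2, Nfkb2 and Relb, with log2 fold changes of 0.0031, -0.011, 0.048 and 0.071. Several of the listed genes are known to respond to STAT3 as well, and the factor behind their change was not tested. Tnfaip2, a TNF-inducible gene that M cells also express, rose in NT-3N. It read 8.13 and 7.90 in Control and 9.27, 9.53 and 9.38 in NT-3N, with means of 8.01 ± 0.16 (SD, n = 2) and 9.40 ± 0.13 (SD, n = 3). The difference of 1.38 on the log2 scale (standard error 0.13, 2.61-fold, limma adjusted p = 0.035) was larger than the spread within either group, and the further probe gave 1.55 (limma adjusted p = 0.039). Tnfaip2 was called in 10 of 18 alternatives. The call was lost without Control replicate 1 (adjusted p = 0.088), Control replicate 2 (0.092), NT-3N replicate 2 (0.14) or NT-3N replicate 3 (0.23).

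The other named NF-kB targets did not pass. Il6 was well above background on 0 of 2 control and 2 of 3 NT-3N arrays, so it passed the filter through NT-3N alone. Computed as for Tnfsf8, its mean over all 3 NT-3N arrays was 2.72-fold higher, a value that was not tested. The limma adjusted p of 0.13 belongs to the fitted difference without that floor. With the normexp alternative the log2 fold change was 0.52, so the 2.72-fold value is no strict lower bound. The neutrophil chemokine gene Cxcl1 read 2.37 and 3.91 in Control, with 1 of the 2 arrays above background, and 6.996, 6.31 and 5.90 in NT-3N (limma adjusted p = 0.13). Icam1, an adhesion molecule for leukocytes, read 5.14 on both control arrays and 5.95, 6.35 and 6.34 in NT-3N, a 2.11-fold difference (limma adjusted p = 0.18). Ccl2, a monocyte chemokine gene, read 6.75 and 7.73 against 8.02, 7.96 and 7.84 (limma adjusted p = 0.51). Of 8 neutrophil markers 4 were tested. Camp, above background on every array, read 6.22 and 6.17 in Control and 6.25, 6.42 and 6.50 in NT-3N (limma adjusted p = 0.74), and Mmp8 overlapped between the groups. S100a8 and S100a9 were above background on 0 of 2 control and all 3 NT-3N arrays and so passed the filter through NT-3N alone, while Cxcr2 and Ngp were above it on 0 of the 5 arrays, and the part of neutrophils in these values was not tested.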

How the data were processed

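Total RNA of whole colon from 2 Control and 3 NT-3N mice was labelled with Cy3 and hybridised to Agilent SurePrint G3 mouse arrays. The authors extracted spot values with Agilent Feature Extraction 11.0.1.1, per the labels. The deposited scanner files hold a background-subtracted intensity for every spot that was not scaled between arrays, and flags for spots that were above background, saturated or outlying. The authors also deposited log2 values for 37380 probes, which correlated at 0.9999 or more with the quantile-normalized signal computed here and were used as an alternative. The arrays lay on 1 slide with 1 scan time.

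Control spots and 69 to 184 outlier spots of 59305 per array were left out. The log2 signal was averaged per probe and quantile-normalized, as the methods of the study describe. Probes well above background on at least 2 arrays were kept, with the brightest probe for each gene. Accessions without their version were matched to RefSeq symbols (GRCm38.p6) for 32994 of 56605 probes. The array design refers to another build, so coordinates are given for promoter windows only. The test was limma 3.58.1 in R 4.3.3 with a trend of the variance on intensity. Its two-sided p-values were adjusted by Benjamini-Hochberg over 32917 features. Further probes come from the same fit on every probe. The number of arrays limits the precision. Each limma p-value weighs the group difference against the spread between these mice, drawn toward the trend of all features at that intensity. Alternatives covered scaling, normexp, the deposited values, filters, the variance model, array weights, the replicate block, a local-pooled-error test, the rule for several probes and leaving out each array.

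The members, lists and the naming rule were chosen with earlier results of these data known. Named are all members, at most 5 genes of each other list with an unadjusted p under 0.05 and no overlap between groups, and every called gene of a list. Tnfsf13, Ighd, Trac and Ly6g had no probe by this matching and were not analysed here.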

Additional observations from a re-analysis of the deposited data

How the results depend on the processing

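Mice of the same replicate number had correlations of deviations of 0.13 and 0.036 over 2 pairs. The 2 controls deviate from their own mean as mirror images, so these values cannot show whether such mice deviate together. A slide or scan block could not be run with 1 slide and 1 scan time. A fit without 1 control takes the spread of the remaining one from the NT-3N group. The precision is limited by the number of arrays, and Tnfsf11 by its signal at background.

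Called members numbered 0, and 1 (Tnfrsf1a) with array weights or the local-pooled-error test; without each array in turn they ranged from 0 to 1. Members at an unadjusted p under 0.05 numbered 1 in place of 2 with 75th percentile or median scaling, no filter, no intensity trend or the local-pooled-error test, and ranged from 2 to 3 without each array. With the replicate block they numbered 2, other ligands and receptors 3 in place of 6, and called features 0 higher and 0 lower in limma, with 1138 and 1350 at an unadjusted p under 0.05. This block gives NT-3N replicate 3, which has no control partner, a term of its own. Little is then left to estimate the spread of a gene, so the lost calls do not show an effect of pairing. The adjusted p of Tnfaip2 was 0.49 with that block, 0.12 with no filter or no trend and 0.11 in the local-pooled-error test. That of Socs3 was 0.46 with that block, 0.091 with no filter and 0.073 with no trend. The local-pooled-error test gave 1 other ligand or receptor and 1 signalling gene in place of 3. Without each array these counts ranged from 3 to 9 and from 0 to 4, and NF-kB targets from 3 to 6.

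Called features, 41 higher and 6 lower, became 124 and 46 with array weights, 192 and 156 with the local-pooled-error test, and 2 and 0 with no filter or no trend. Lower calls were 13 when every array had to be above background, 11 with the deposited values, 16 with every probe and 15 with robust variance. Without each array they ranged from 0 to 112 higher and from 0 to 16 lower.

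Signs turned for genes near 0, and also for Relt, Lta, Ltb and Tnfrsf13c, whose main log2 fold changes were 0.68, 0.62, 0.35 and 1.19. Tnfrsf11a was 0.0039 with 75th percentile scaling, 0.026 with median scaling, 0.016 in the local-pooled-error test, 0.051 with the mean of probes and 0.052 with the replicate block. Tnf was 0.018 with normexp and 0.091 with the replicate block, and Tnfrsf1b -0.0064 and -0.015. Relt was -0.13 with the deposited values. Without each array the log2 fold change ranged from -0.066 to 0.051 for Tnfrsf11a, -0.23 to 0.091 for Tnf, -0.13 to 0.19 for Tnfrsf1b, -0.11 to 0.70 for Relt, -0.22 to 0.0011 for Tnfsf12, -0.21 to 1.46 for Lta, -0.44 to 1.15 for Ltb, -0.23 to 2.63 for Tnfrsf13c and -0.19 to 0.0091 for Tnfrsf25. For Lta, Ltb and Tnfrsf13c the sign turned in 1 alternative each, the fit without Control replicate 2. What lay behind the values of that array, or behind the other turns, was not tested.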

Other observations

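Anxa5, on the list of M cell genes, read 1.34 in Control replicate 1 and between 12.54 and 13.05 on the other arrays, so its fitted log2 fold change of 5.64 (limma adjusted p = 0.61) rests on a single spot.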
